A study of Mus musculus with 24 samples.

Results

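The brush border digestive hydrolases described here were 10 genes, chosen by symbol from the known enzymes of the microvillus membrane and matched to their Ensembl identifiers in 24 gene count tables. They were Lct, Sis, Mgam, Treh, Alpi, Anpep, Enpep, Dpp4, Mep1a and Mep1b, 10 of the 54146 genes in the tables, and all 10 had enough reads to be tested in both experiments. The rule itself uses no measured value, but the list was chosen with earlier results of these data known. In mouse small intestinal organoids lacking both Mediator kinases CDK8 and CDK19, 7 of the 10 were expressed more highly than in WT organoids and 0 were lower, where 9.41% of all genes tested were higher and 7.90% lower. In WT organoids given Senexin B, an inhibitor of the same 2 kinases, the genes split instead, with lactase rising and sucrase-isomaltase falling.

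The brush border is the dense layer of microvilli on the lumenal face of enterocytes, the absorptive cells of the intestine. Its hydrolases are membrane-anchored enzymes that complete the digestion of sugars and peptides next to the transporters that take up the products. Enterocytes acquire them as they leave the crypt and mature, and lactase is best known as the enzyme of suckling, after which its expression declines while sucrase-isomaltase rises.

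RNA was sequenced from 2 experiments of 12 libraries each, with 3 libraries per group, and the study describes its conditions as biological triplicates. The genotype experiment compared WT organoids with single knockouts of Cdk8 (Cdk8-/-) or Cdk19 (Cdk19-/-) and with the double knockout, Cdk8-/-/Cdk19-/-, all after 7 days in 600 nM 4-hydroxytamoxifen. In the Senexin B experiment WT organoids were harvested at 16 h or 24 h after addition of the vehicle DMSO or of 10 µM Senexin B. Cdk8 was removed by excising exon 2 with a tamoxifen-inducible Cre driven by the Villin promoter in Cdk8 lox/lox organoids, and Cdk19 was disrupted with Cas9 and a guide against exon 1 delivered by lentivirus, followed by puromycin selection and clonal expansion of single organoids. Genotype, Cre, lentiviral selection and clone therefore cannot be told apart.

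The deposited counts came to 14636861 to 15473180 reads per library in the genotype experiment and 27075937 to 28405118 in the Senexin B experiment, in the column for the second read strand. The genotype libraries carried no strand information, with 49.6% to 49.7% of strand-assigned reads in that column, against 87.9% to 90.5% in the Senexin B libraries, so levels are not compared across the experiments. One label of the genotype samples names the 4T1 mammary carcinoma line, but the 6 mammary markers examined summed to 0 to 1.93 CPM (TMM-normalised read counts relative to library size) in those libraries, while the 10 enterocyte markers summed to 5171.6 to 16057.2 CPM. Cdk19 itself was at 47.6 to 50.1 CPM in WT. It was at 48.8 CPM in Cdk19-/- replicate 1 and 51.7 CPM in double knockout replicate 3, against 23.8 to 28.3 CPM in the other libraries labelled as lacking it. An edit by Cas9 need not lower the count of its gene. The study describes a check of Cdk19 mRNA by qPCR in its edited organoids, in which it gives that mRNA as lost. It also reports a deletion at the guide site by sequencing and no CDK19 protein by Western blot. Those data are not analysed here. Counts of calls, marker lists, ratios and correlations are also given without those 2 libraries. Cdk8 counts were 35.8 to 43.2 CPM in WT and 42.4 to 57.3 CPM across the libraries labelled Cdk8-/- or double knockout, and counts per gene do not separate the deleted exon from the rest of the transcript.

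Positions of the members are from the GENCODE vM21 models on GRCm38, the build of the count tables, and reads were counted over the exons of each protein-coding gene. Lct (ENSMUSG00000026354, chr1:128284756-128328318) encodes lactase, Sis (ENSMUSG00000027790, chr3:72888557-72967863) sucrase-isomaltase, and Mgam (ENSMUSG00000068587, chr6:40628831-40769123) maltase-glucoamylase, a paralogue of Sis. Treh (ENSMUSG00000032098, chr9:44673233-44686305) encodes trehalase, which splits trehalose, and Alpi (ENSMUSG00000079440, chr1:87098002-87101606) intestinal alkaline phosphatase. Anpep (ENSMUSG00000039062, chr7:79821803-79861059) encodes aminopeptidase N, Enpep (ENSMUSG00000028024, chr3:129269175-129332720) glutamyl aminopeptidase, and Dpp4 (ENSMUSG00000035000, chr2:62330073-62412231) dipeptidyl peptidase 4. Mep1a (ENSMUSG00000023914, chr17:43474324-43502812) and Mep1b (ENSMUSG00000024313) encode the alpha and beta subunits of the metalloprotease meprin. Treh, Enpep, Dpp4 and Mep1b each overlap a gene on the opposite strand, so in the unstranded genotype libraries reads of the partner cannot be told apart from theirs.

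The 250 bases before the start of 3 members are shown because the results turn on these genes: Lct rose with the inhibitor, Sis fell with it, and Anpep rose with the inhibitor and in both genotypes lacking Cdk8. They were taken from the RefSeq promoter table (GRCm38.p6), which held 9 of the 10 members, and all lie on the minus strand, at chr1:128328319-128328568 for Lct, chr3:72967864-72968113 for Sis and chr7:79848211-79848460 for Anpep, whose RefSeq start lies within the GENCODE span. Capitals mark matches on either strand to 3 short motifs of transcription factors that act in the intestine. The letters searched were TTTATTG for the caudal factor Cdx2. They were also CAAAGTC for the HNF4 factors, nuclear receptors of the mature epithelium, and AGATAA for the zinc finger GATA factors.
Lct: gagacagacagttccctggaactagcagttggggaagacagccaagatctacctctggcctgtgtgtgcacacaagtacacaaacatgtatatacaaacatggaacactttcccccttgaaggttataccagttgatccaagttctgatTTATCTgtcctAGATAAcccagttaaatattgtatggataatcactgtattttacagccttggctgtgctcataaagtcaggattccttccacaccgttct
Sis: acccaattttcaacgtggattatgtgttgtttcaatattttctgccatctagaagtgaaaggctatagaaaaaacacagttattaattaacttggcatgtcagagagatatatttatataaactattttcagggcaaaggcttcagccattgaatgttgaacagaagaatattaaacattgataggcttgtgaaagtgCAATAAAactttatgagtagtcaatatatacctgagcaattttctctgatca
Anpep: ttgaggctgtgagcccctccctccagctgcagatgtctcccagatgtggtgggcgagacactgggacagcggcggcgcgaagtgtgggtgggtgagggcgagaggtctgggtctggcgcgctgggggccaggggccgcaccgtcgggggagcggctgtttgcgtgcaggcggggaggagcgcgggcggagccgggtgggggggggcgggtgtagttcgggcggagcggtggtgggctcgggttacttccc
The Lct stretch held AGATAA on each strand, starting 101 and 90 bases before the gene start. In the Sis stretch there was 1 TTTATTG, 52 bases before the start, and none of the 3 motifs was in the Anpep stretch. Which start of Anpep these organoids use was not tested. Across the 9 members TTTATTG was present in 1, CAAAGTC in 2 (Alpi and Treh) and AGATAA in 3 (Dpp4, Lct and Mgam). Of the 32851 promoters in the table, 4.2%, 3.84% and 9.99% held these motifs, in the same order. These are matches of letters, and binding was not tested.

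Per kilobase of exon, the hydrolases covered a wide range in WT organoids. Alpi was at 378 ± 87.7 CPM per kb (SD, n = 3), Sis at 328 ± 11.1 and Anpep at 232 ± 18.0, and the spread of Alpi overlapped that of Sis. Mgam followed at 72.3 ± 1.82 and Mep1b at 56.9 ± 3.96 CPM per kb. Treh was at 35.7 ± 8.13 CPM per kb, and Dpp4, Enpep, Mep1a and Lct lay between 26.0 and 16.0, where neighbours in the order overlapped within their SDs. In the double knockout Alpi (650 ± 300) and Anpep (649 ± 14.0 CPM per kb) stood level at the top and Lct was last at 49.0 ± 26.5, level with Dpp4 at 49.3. Organoids given DMSO for 16 h in the other experiment had Alpi first, at 395 ± 81.5 CPM per kb, and Lct last, at 0.169 ± 0.0235 CPM per kb.

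The first question was whether loss of both kinases changed these genes. Against WT, 7 of 10 members were called higher and 0 lower in the double knockout, with a median log2 fold change of 0.89, where 17.3% of the 15602 genes tested were called in either direction, 9.41% higher and 7.90% lower, with a median of -0.01 (edgeR quasi-likelihood test, adjusted p under 0.05 after Benjamini-Hochberg adjustment over all genes). Leaving out Cdk19-/- replicate 1 and double knockout replicate 3, 8 members and 19.0% of genes were called. The RNA came from whole organoids, so more cells of a type and more RNA per cell cannot be told apart.

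Among the disaccharidases, lactase had the largest change. Lct was at 118, 129 and 61.3 CPM in WT replicates 1 to 3 and at 500, 168 and 273 CPM in the double knockout. The groups did not overlap, although double knockout replicate 2 was close to the WT libraries. The log2 fold change was 1.61 ± 0.503 (SE; adjusted p = 0.0452), and the call was lost when any 1 of 5 of the 6 libraries was left out (adjusted p 0.0599 to 0.156), the exception being double knockout replicate 2, and also when strand was ignored (adjusted p = 0.0542). Mgam, which releases glucose from starch fragments, rose from 630, 645 and 613 CPM to 1294.2, 913 and 1165.1 CPM, a log2 change of 0.84 ± 0.118 (adjusted p = 0.00123). Every double knockout library lay above every WT library. Sis was at 2541.6, 2413.7 and 2386.8 CPM in WT and at 3691.3, 2152.4 and 3258.9 CPM in the double knockout, so replicate 2 fell below WT, and it was not called (0.31 ± 0.174, adjusted p = 0.243; called without that replicate, at 0.51, adjusted p = 0.0353). Treh was likewise not called (0.65 ± 0.302, adjusted p = 0.161), with 79.6, 85.4 and 54.1 CPM in WT and 181, 83.1 and 80.3 CPM in the double knockout. Its higher mean came from replicate 1.

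Alkaline phosphatase, which detoxifies bacterial lipopolysaccharide at the brush border, varied widely between double knockout libraries. Alpi was at 728, 805 and 1115.2 CPM in WT and at 2044.4, 1787.7 and 722 CPM in the double knockout. Replicates 1 and 2 were above all WT libraries and replicate 3 below them. It was not called (0.78 ± 0.309, adjusted p = 0.101), while without replicate 3, 1 of the 2 libraries with Cdk19 at the WT level, the log2 change was 1.12 (adjusted p = 0.00488).

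All 3 exopeptidases rose. Anpep, which removes neutral residues from the N terminus of peptides, was at 874, 985 and 1014.8 CPM in WT and 2735.8, 2622.4 and 2697.7 CPM in the double knockout, a 2.80-fold rise (log2 1.49 ± 0.221, adjusted p = 0.00144). The double knockout libraries lay close together and far above WT. Dpp4, which cleaves dipeptides after proline and alanine and inactivates incretins, went from 170, 169 and 154 CPM to 328, 267 and 340 CPM (0.93 ± 0.129, adjusted p = 0.00117), with no overlap. Enpep, which removes acidic N-terminal residues, went from 111, 121 and 87.9 CPM to 327, 156 and 239 CPM (1.17 ± 0.346, adjusted p = 0.0369). Its groups did not overlap either, but the call was lost when any of the same 5 libraries as for Lct was left out (adjusted p 0.0624 to 0.116).

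Both meprin subunits, whose complexes cleave proteins in the lumen and the mucus, rose as well. Mep1a was at 73.9, 75.9 and 52.5 CPM in WT and 205, 161 and 161 CPM in the double knockout (log2 1.38 ± 0.299, adjusted p = 0.00931). Mep1b was at 144, 161 and 143 CPM and at 331, 231 and 249 CPM (0.85 ± 0.168, adjusted p = 0.00568). Neither gene had overlapping groups. For 7 members the groups did not overlap, all with the double knockout higher, against 18.7% of genes tested. The calls of Mgam, Anpep, Dpp4, Mep1a and Mep1b held whichever single library was left out.

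**Figure D1:**
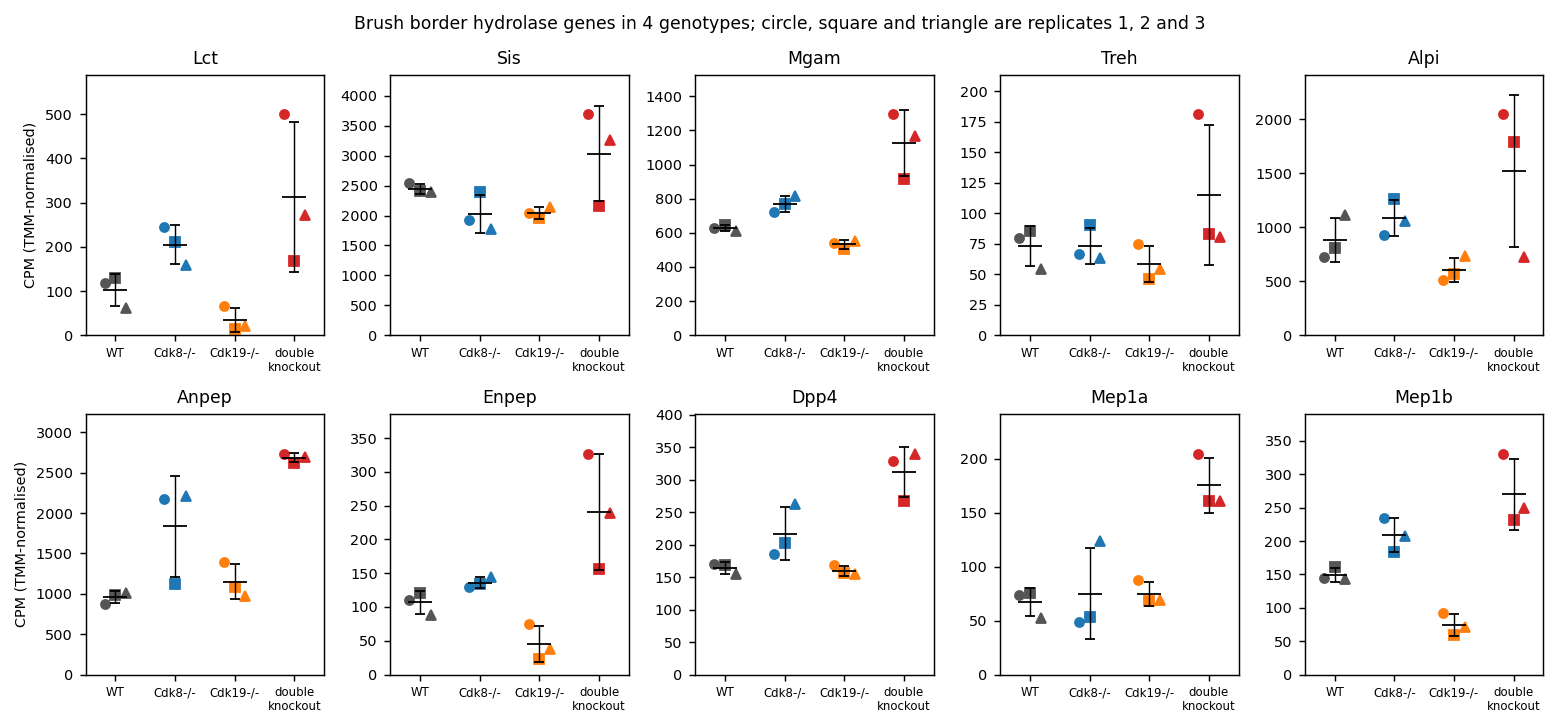
Expression of the 10 hydrolase genes in the genotype experiment, in TMM-normalised CPM (each panel starts at 0), with 1 point per library and the mean and SD of 3 libraries per group in black. The double knockout libraries of Anpep lie between 2622.4 and 2735.8 CPM, while those of Alpi run from 722 to 2044.4 CPM and those of Lct from 168 to 500 CPM.

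Loss of CDK8 alone gave 1 call among the members. Anpep was at 2179.7, 1117.1 and 2206.1 CPM in Cdk8-/- organoids, all above WT, with a log2 change of 0.94 ± 0.218 (adjusted p = 0.0307). Across all genes 5.15% were called, 2.79% higher. The Anpep call was lost when any library other than Cdk8-/- replicate 2 was left out (adjusted p 0.0808 to 0.135) and in a fit of the 2 groups alone (adjusted p = 0.0573), where Mep1b was called instead (0.46, adjusted p = 0.0423) and 6.26% of genes were. Of the remaining members 8 had estimates above 0, among them Treh at 0.01 ± 0.303, whose sign changed with the processing, and Sis was at -0.27 ± 0.174. Lct, at 245, 212 and 158 CPM, was above every WT library, but its estimate of 1.00 ± 0.497 did not pass (adjusted p = 0.274). Dpp4 (0.40 ± 0.129, adjusted p = 0.0956) and Mep1b (0.48 ± 0.167, adjusted p = 0.122) also had non-overlapping groups without passing. Mgam, Alpi and Enpep were at 0.29 ± 0.117, 0.29 ± 0.307 and 0.35 ± 0.343, none of them called. In all, 6 members had every Cdk8-/- library above every WT library, against 14.9% of genes. Mep1a was at 48.3, 53.0 and 124 CPM, and only replicate 3 was above WT.

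In Cdk19-/- organoids no member was called, as was true of every gene tested (0%) with edgeR, where 10.8% of genes and 3 members had an unadjusted p under 0.05. Those 3 members were lower, as were 5.76% of genes. Mep1b was at 91.8, 58.6 and 71.5 CPM, all below WT (log2 -1.01 ± 0.170, adjusted p = 0.0969). Enpep, at 74.4, 22.4 and 37.8 CPM, was also below every WT library (-1.25 ± 0.353, adjusted p = 0.194). Lct was at 65.1, 15.0 and 22.0 CPM (-1.60 ± 0.514, adjusted p = 0.248). Its replicate 1 lay within the WT range. In all 3 genes the highest library was replicate 1, which had Cdk19 at the WT level. Without it Lct (-2.46, adjusted p = 0.0176), Enpep (-1.81, adjusted p = 0.00927) and Mep1b (-1.19, adjusted p = 0.00451) were called lower, as 3.27% of genes were then called. DESeq2 on all libraries called 1 member, Mep1b, and 2.13% of genes. For 4 members, Sis, Mgam, Enpep and Mep1b, every Cdk19-/- library was below every WT library, against 10.8% of genes. The estimates of Sis and Mgam were -0.26 ± 0.174 and -0.24 ± 0.117, and those of Treh and Alpi -0.32 ± 0.304 and -0.55 ± 0.308. Anpep and Mep1a were the 2 members with estimates above 0, at 0.27 ± 0.217 and 0.15 ± 0.297. Dpp4 stayed within 154 to 168 CPM against 154 to 170 in WT, a log2 difference of -0.04 with a 95% confidence interval from -0.32 to 0.24.

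The double knockout was next set against each single knockout. Against Cdk19-/- all 10 members were higher (25.3% of genes called, 14.4% higher; median log2 change of the members 1.23). The largest differences were Lct at 3.21 ± 0.539 (adjusted p = 0.00141), Enpep at 2.42 ± 0.362 (adjusted p = 0.000722) and Mep1b at 1.87 ± 0.173 (adjusted p = 6.65e-05). Alpi, Anpep and Mep1a were higher by 1.33 ± 0.312, 1.22 ± 0.220 and 1.23 ± 0.298 (adjusted p 0.00209 to 0.0107), and Mgam and Dpp4 by 1.08 ± 0.119 and 0.97 ± 0.129 (adjusted p = 0.000162 and 0.000412). The groups of Alpi overlapped, with 722 CPM in the lowest double knockout library and 729 CPM in the highest Cdk19-/- library. The smallest, Sis at 0.57 ± 0.174 (adjusted p = 0.0324), was lost when any library but double knockout replicate 2 was left out, and Treh, at 0.97 ± 0.305 (adjusted p = 0.0351), was lost without double knockout replicate 1, Cdk19-/- replicate 2 or Cdk19-/- replicate 3. Without the 2 libraries with Cdk19 at the WT level 9 members and 28.5% of genes were called. Against Cdk8-/- all 10 estimates were above 0, from 0.38 for Mep1b to 1.22 for Mep1a, but 0 members were called with edgeR, as against 0.0256% of all genes (0 members and 0.139% without the 2 libraries with Cdk19 at the WT level). Between 0.38 and 1.22 lay Alpi at 0.49, Dpp4 at 0.52, Mgam and Anpep at 0.55, Sis at 0.58, Lct at 0.61, Treh at 0.64 and Enpep at 0.82. An unadjusted p under 0.05 was found for 7 members, all higher, and for 15.5% of genes, 6.93% higher. DESeq2 called 4 members there (Sis, Mgam, Dpp4 and Mep1a) and 3.13% of genes, and edgeR without Cdk8-/- replicate 3 called 3 members (Mgam, Dpp4 and Mep1a) and 5.28% of genes. WT and the single knockouts are shared between these comparisons, so their values are not independent.

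The combined effect, the extent to which the double knockout differed from the sum of the single knockouts on the log2 scale, was above 0 for all 10 members. Estimates ran from 0.28 ± 0.306 for Anpep to 2.21 ± 0.710 for Lct, and 9 of 10 had an unadjusted p under 0.05, against 14.5% of genes, 8.02% with an estimate above 0. None was called with edgeR (0.0256% of genes were), and the nearest was Mep1b at 1.39 ± 0.238 (adjusted p = 0.0583). For Enpep it was 2.08 ± 0.492 (adjusted p = 0.105). Dpp4, Mgam and Sis were at 0.56, 0.79 and 0.84, and Treh, Alpi and Mep1a at 0.97, 1.04 and 1.07. DESeq2 called 4 members, Sis, Mgam, Enpep and Mep1b, and 3.38% of genes. Without the 2 libraries with Cdk19 at the WT level edgeR called 5 members and 4.60% of genes. Anpep was the only member whose confidence interval included 0 (-0.38 to 0.95), with Cdk8-/- libraries already above WT.

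The Senexin B experiment asked what inhibiting the kinase activity did within a day. After 16 h, 4 members were called higher and 2 lower, where 7.75% of the 15467 genes tested were called, 4.36% higher and 3.39% lower. After 24 h, 3 were higher and 3 lower, against 27.5% of genes, 14.8% higher and 12.7% lower. At 16 h 4 members had every treated library above every control library and 2 below (12.2% and 12.6% of genes), and at 24 h 3 lay above and 5 below (23.5% and 22.1%). The members' median log2 change was 0.00 at 16 h and -0.23 at 24 h. Libraries with the same replicate number deviated together in part in this experiment. The deviations of same-numbered Senexin B and DMSO libraries correlated at 0.10 to 0.30 at 16 h and 0.14 to 0.38 at 24 h. Differently numbered ones reached 0.15 at both times. A fit with the replicate number as a block within each time point called 7 members at 16 h and 9 at 24 h. It also called more of all genes, 15.1% at 16 h and 38.0% at 24 h, and the calls it added among the members are given with each gene.

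Lactase rose most, from a very low level. Lct had 26 to 33 reads per library with DMSO at 16 h, which was 1.21, 0.918 and 1.12 CPM in replicates 1 to 3, and 8.81, 3.89 and 3.33 CPM with Senexin B, a 4.92-fold rise (log2 2.30 ± 0.348, adjusted p = 0.00104). At 24 h DMSO libraries held 2.14, 1.52 and 1.07 CPM and Senexin B libraries 19.6, 20.7 and 18.7 CPM, a 12.5-fold rise (3.64 ± 0.309, adjusted p = 4.53e-06). The treated libraries were above every DMSO library at both times. The effect was 1.34 ± 0.490 larger at 24 h than at 16 h on the log2 scale, which was not called (adjusted p = 0.305) but passed with the block within time points (1.40, adjusted p = 0.0481, with 2.10% of genes called). Even then Lct remained the least expressed member per length, at 3.07 ± 0.151 CPM per kb.

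The other disaccharidases did not follow lactase. Sis fell from 557, 840 and 639 CPM to 346, 464 and 415 CPM at 16 h (-0.73 ± 0.165, adjusted p = 0.0138) and from 701, 795 and 736 CPM to 301, 391 and 483 CPM at 24 h (-0.92 ± 0.166, adjusted p = 0.00124). Treated and control libraries did not overlap at either time. The 16 h call was lost without DMSO replicate 2 or Senexin B replicate 1 or 3 (adjusted p 0.0515 to 0.0693). Treh fell at 24 h, from 62.5, 49.9 and 44.2 CPM to 32.4, 23.9 and 27.9 CPM (-0.90 ± 0.176, adjusted p = 0.00222). At 16 h its estimate was -0.54 ± 0.174 (adjusted p = 0.0733; adjusted p = 0.000784 with the block), with 41.9 CPM in both the lowest DMSO and the highest Senexin B library. Mgam was at 652, 901 and 610 CPM with DMSO and 728, 788 and 806 CPM with Senexin B at 16 h (0.10 ± 0.110, adjusted p = 0.643). At 24 h it was at 828, 790 and 797 CPM and 709, 688 and 712 CPM (-0.20 ± 0.110, adjusted p = 0.203), a difference whose 95% confidence interval ran from -0.43 to 0.04.

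Of the exopeptidases, Anpep and Enpep rose and Dpp4 did not. Anpep went from 268, 335 and 442 CPM to 493, 665 and 676 CPM at 16 h (0.81 ± 0.231, adjusted p = 0.0460) and from 297, 530 and 486 CPM to 570, 857 and 962 CPM at 24 h (0.86 ± 0.231, adjusted p = 0.0136). Groups were apart at both times, and in each replicate number the treated library was the higher. The call was lost at 16 h without DMSO replicate 1 or 2 or Senexin B replicate 2 or 3 (adjusted p 0.0986 to 0.144), and at 24 h without DMSO replicate 1 or Senexin B replicate 2 or 3 (adjusted p 0.0507 to 0.0634). Enpep went from 26.5, 32.7 and 18.8 CPM to 53.2, 41.4 and 35.3 CPM at 16 h (0.73 ± 0.208, adjusted p = 0.0454) and from 37.4, 26.5 and 22.3 CPM to 50.7, 62.5 and 64.7 CPM at 24 h (1.04 ± 0.207, adjusted p = 0.00236). Its groups were apart too, and its 16 h call was lost without DMSO replicate 1 or 3 or Senexin B replicate 1 or 2 (adjusted p 0.0588 to 0.178). Dpp4 was at 98.5, 125 and 127 CPM with DMSO and 95.5, 115 and 116 CPM with Senexin B at 16 h, a difference of -0.10 ± 0.101 (adjusted p = 0.613). At 24 h it was at 121, 123 and 129 CPM and 94.9, 105 and 112 CPM, and the lower level (-0.26 ± 0.101, adjusted p = 0.0707) passed with the block (adjusted p = 0.00274).

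The meprin subunits moved apart. Mep1a fell from 32.4, 28.0 and 25.5 CPM to 17.9, 15.6 and 15.7 CPM at 16 h (-0.80 ± 0.119, adjusted p = 0.000874) and from 41.4, 30.7 and 33.4 CPM to 15.7, 18.0 and 17.0 CPM at 24 h (-1.06 ± 0.118, adjusted p = 5.07e-05). Every treated library was below every control library. Mep1b rose at 16 h, from 62.4, 54.2 and 40.5 CPM to 81.8, 75.6 and 73.5 CPM (0.56 ± 0.131, adjusted p = 0.0175), a call lost without Senexin B replicate 1 (adjusted p = 0.0656). At 24 h Mep1b was at 77.4, 61.4 and 58.8 CPM and 79.8, 79.0 and 76.3 CPM (0.25 ± 0.130, adjusted p = 0.168; adjusted p = 0.0323 with the block). Alpi was not called at either time, at 1140.7, 837 and 790 CPM against 875, 832 and 841 CPM at 16 h (-0.12 ± 0.150, adjusted p = 0.702). At 24 h it was at 962, 761 and 771 CPM against 843, 578 and 605 CPM (-0.30 ± 0.150, adjusted p = 0.155; adjusted p = 0.00929 with the block).

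**Figure D2:**
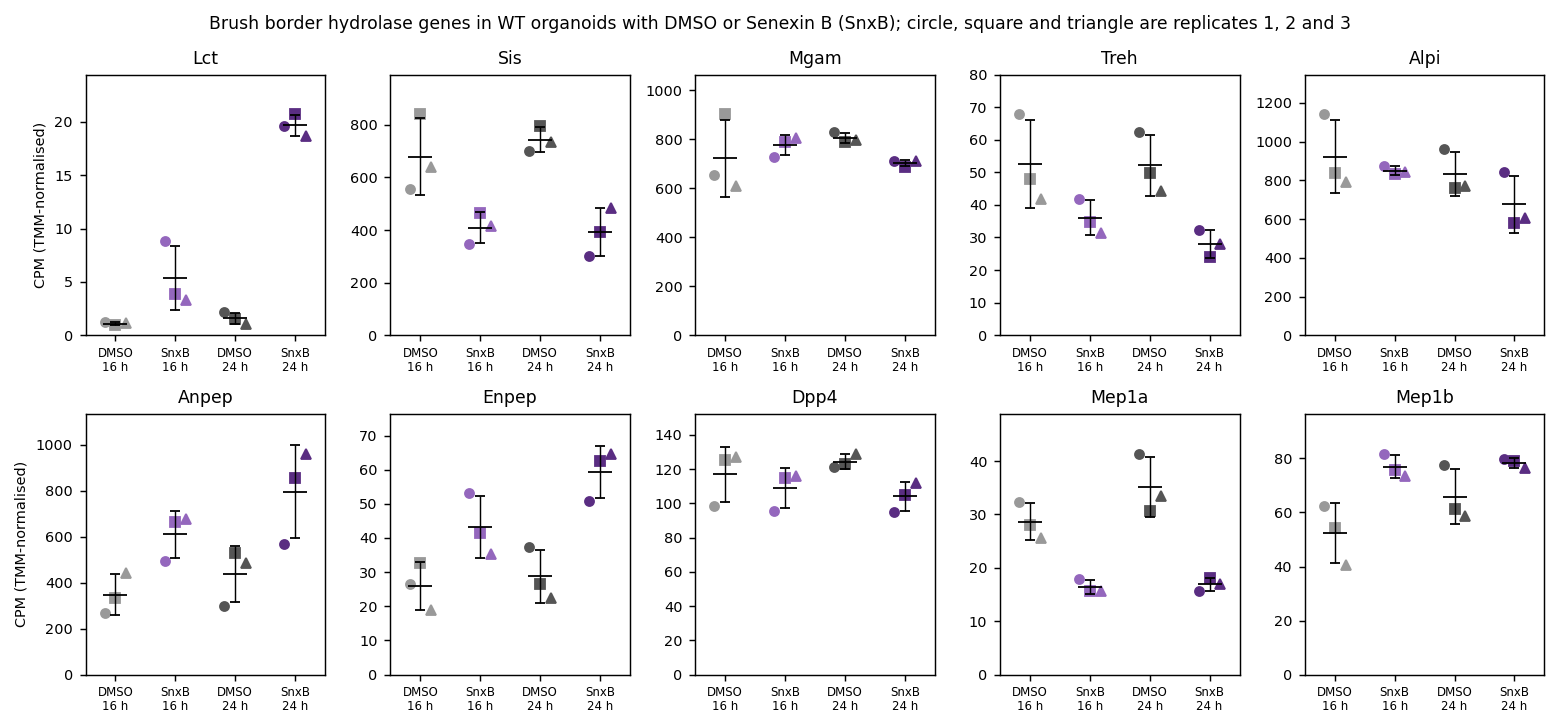
Expression of the 10 hydrolase genes in WT organoids given DMSO or Senexin B (SnxB) for 16 h or 24 h, in TMM-normalised CPM (each panel starts at 0), with 1 point per library and the mean and SD of 3 libraries per group in black. Lct climbs from about the axis to 18.7 to 20.7 CPM at 24 h, while Mep1a drops to 15.6 to 18.0 CPM in all treated libraries.

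Time in culture with DMSO gave no call among the members, where 11.1% of genes were called between 24 h and 16 h. An unadjusted p under 0.05 was found for 2 members, Mep1a (0.30 ± 0.115) and Mep1b (0.33 ± 0.131), and for 28.1% of genes. Estimates of the remaining members were 0.54 for Lct, 0.33 for Anpep, 0.16 for Mgam, 0.14 for Enpep, 0.13 for Sis, 0.09 for Dpp4, -0.01 for Treh and -0.15 for Alpi. DESeq2 called 0 members as well, and over all alternative settings 2.57% to 21.2% of genes were called. For the difference between the Senexin B effects at 24 h and 16 h, Lct was the 1 member with an unadjusted p under 0.05, as had 12.9% of genes. With edgeR 0% of all genes were called, and with DESeq2 0 members. Over all alternative settings 0% to 2.10% of genes were called. Beside the 1.34 of Lct, the differences were 0.31 for Enpep, 0.05 for Anpep, -0.16 for Dpp4, -0.18 for Alpi, -0.19 for Sis, -0.25 for Mep1a, -0.30 for Mgam, -0.31 for Mep1b and -0.36 for Treh.

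Set side by side, the genetic and the chemical perturbation gave different profiles over the members. Lct, Anpep and Enpep were called higher in the double knockout and with Senexin B at both times. Without the replicate block, Mgam and Dpp4 were called higher in the double knockout and not called with Senexin B, and Mep1b was called higher in the double knockout and at 16 h. With the block Dpp4 was called lower and Mep1b higher at 24 h (adjusted p = 0.00274 and 0.0323). Alpi, at 0.78 and not called in the double knockout, was called lower at 24 h with the block alone (adjusted p = 0.00929). Mep1a was called higher in the double knockout (1.38) and lower with Senexin B (-0.80 and -1.06), and Sis and Treh, which were not called in the double knockout, were called lower with Senexin B, Sis at both times and Treh at 24 h, and at 16 h with the block (adjusted p = 0.000784). The experiments differ in duration, library type and depth, so the difference between them was not tested.

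**Figure D3:**
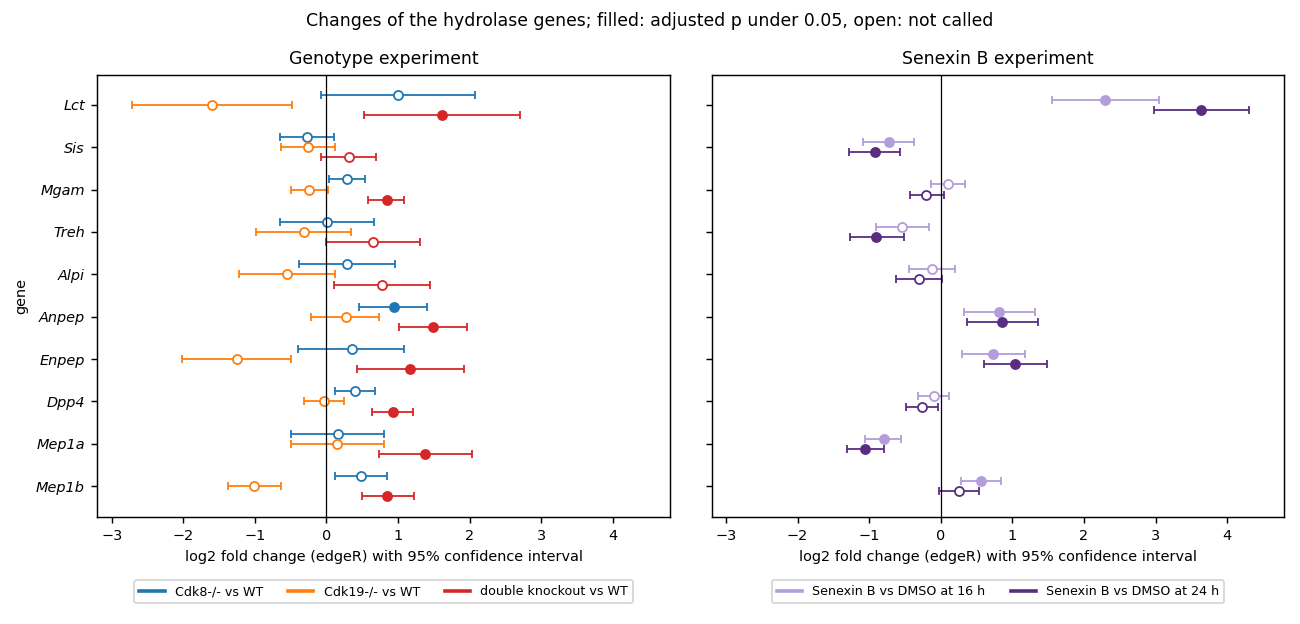
Log2 fold changes of the 10 genes from edgeR with 95% confidence intervals, against WT on the left and against DMSO at the same time on the right; filled points passed an adjusted p of 0.05. The double knockout points all lie right of 0, whereas with Senexin B Lct reaches 3.64 and Mep1a -1.06.

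Ratios within a library, per kilobase of exon, show how the enzyme mix shifted. The Sis level was 16.0 to 33.4 times that of Lct in WT and 6.33 to 11.0 times in the double knockout, and no library of these groups overlapped. In Cdk8-/- it was 6.74 to 9.68 times, within the range of the double knockout, and in Cdk19-/- 26.9 to 112 times (83.9 to 112 times without replicate 1). With DMSO at 24 h it was 281 to 591 times, and with Senexin B 13.2 to 22.1 times. The ratio of Mep1a to Mep1b was 0.380 to 0.432 with DMSO and 0.150 to 0.173 with Senexin B at 24 h. In the genotype experiment the same ratio was 0.279 to 0.391 in WT, 0.157 to 0.456 in Cdk8-/-, 0.471 to 0.529 in the double knockout and 0.724 to 0.885 in Cdk19-/-. The ratio of Anpep to Sis was 0.621 to 0.767 in WT, 0.844 to 2.25 in Cdk8-/-, 0.821 to 1.23 in Cdk19-/- and 1.34 to 2.20 in the double knockout, so that all libraries of the 3 knockout groups were above WT. Without the 2 libraries with Cdk19 at the WT level the upper end for Cdk19-/- was 1.00, its Mep1a to Mep1b ratio started at 0.730, and the double knockout ranges of the 3 ratios were as given. With 24 h of treatment it went from 0.766 to 1.20 up to 3.41 to 3.96.

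Across the 12 libraries of the genotype experiment all 45 pairs of members were positively correlated (log2 CPM, Pearson's r 0.25 to 0.97, median 0.69), and over the 10 libraries without the 2 with Cdk19 at the WT level all 45 were too (0.07 to 0.98, median 0.75). In the Senexin B experiment 22 pairs had r above 0 and 23 below, from -0.93 to 0.91 with a median of -0.11. These correlations span the groups and share their libraries, and are given as a description. The 5 other genes whose levels were most like the mean of the members were Acbd4, Cdk18, Tstd3, 2010106E10Rik and Slc7a8 in the genotype experiment (r 0.98 to 0.99 over 12 libraries, and also over those 10, where they ranked 2 to 10). In the Senexin B experiment they were Gm45718, Phactr2, Vwa8, Kif1b and Ddi2 (r 0.89 to 0.91).

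**Figure D4:**
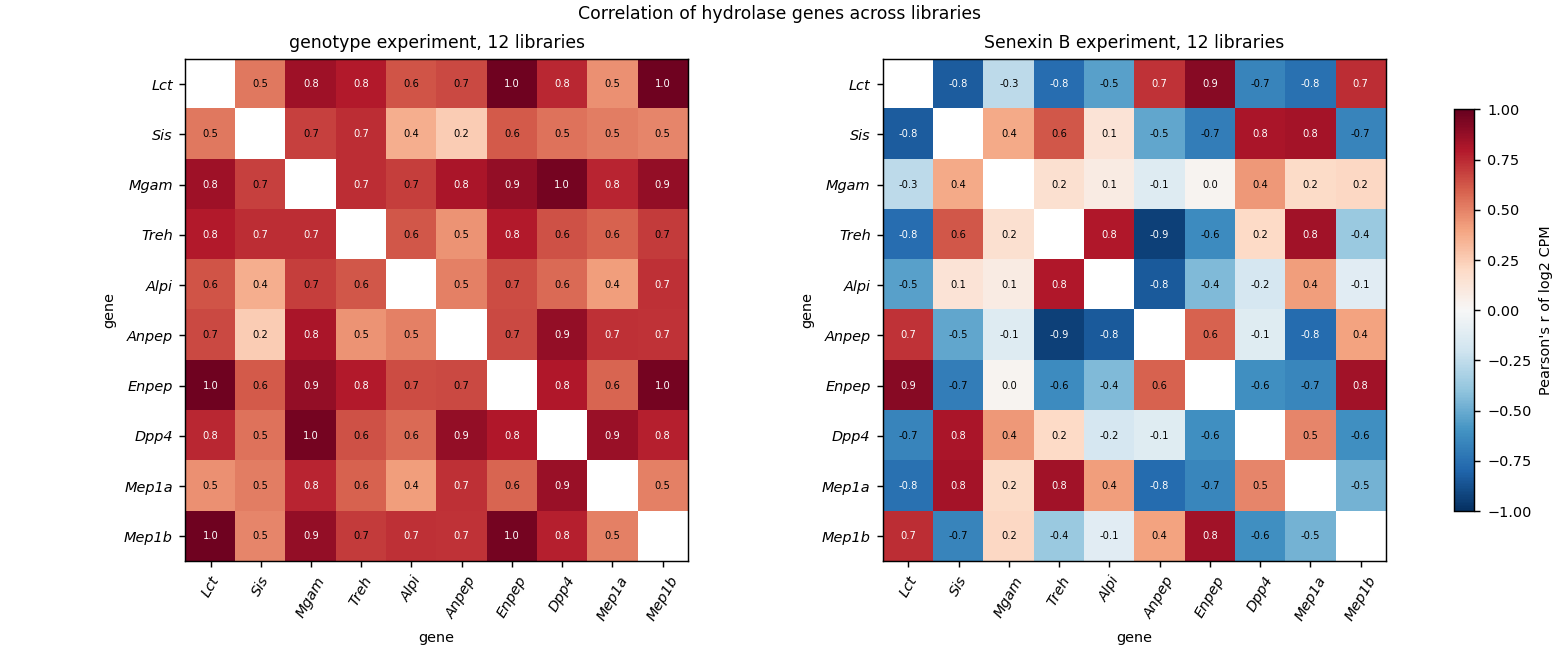
Pearson's r of log2 CPM between each pair of the 10 genes over the 12 libraries of each experiment, from blue (-1) to red (1). The genotype panel is red throughout, with 45 of 45 pairs above 0, while in the Senexin B panel Lct is red with Anpep, Enpep and Mep1b (0.72 to 0.91) and blue with Sis, Treh, Dpp4 and Mep1a (-0.83 to -0.66).

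Other hydrolases of the brush border also rose in the double knockout. Of 17 listed, 15 were tested, and 7 rose and 0 fell in the double knockout (9.41% and 7.90% of all genes), with a median log2 change of 0.93. Without the 2 libraries with Cdk19 at the WT level 9 rose (10.3% of genes) and 0 fell. Among the 7 were Naaladl1 (2.82 ± 0.536, adjusted p = 0.00486) and Enpp3 (2.05 ± 0.357, adjusted p = 0.00306), a nucleotide pyrophosphatase. Ace (1.61 ± 0.342, adjusted p = 0.00841), the angiotensin-converting enzyme, and Dpep1 (1.42 ± 0.432, adjusted p = 0.0410), a dipeptidase, were also among them. With Senexin B 3 rose and 2 fell at 16 h, against 4.36% and 3.39% of genes. At 24 h 2 rose and 2 fell, which was close to the 14.8% and 12.7% of all genes. The pantetheinase Vnn1 (1.16 ± 0.216, adjusted p = 0.00160) and the phosphatase Alppl2 (0.69 ± 0.182, adjusted p = 0.0121) were higher at 24 h, and Dpep1 (-1.68 ± 0.274, adjusted p = 0.000650) and the aminopeptidase Xpnpep2 (-0.99 ± 0.115, adjusted p = 6.24e-05) lower. Dpep1 thus changed in opposite directions in the double knockout and with the inhibitor, as Mep1a did.

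Of 17 structural genes of the brush border, 11 rose and 0 fell in the double knockout (median 0.47), against 9.41% and 7.90% of all genes, and 12 rose without the 2 libraries with Cdk19 at the WT level (10.3% of genes). The adhesion protein gene Tmigd1 led with 4.56 ± 0.523 (adjusted p = 0.000368), followed by Cdhr5, a protocadherin that links microvillus tips (1.29 ± 0.183, adjusted p = 0.00123), and the scaffold gene Pdzk1 (1.09 ± 0.186, adjusted p = 0.00272). With Senexin B at 24 h 2 rose and 5 fell, against 14.8% and 12.7% of genes, among them Espn (-0.64 ± 0.113, adjusted p = 0.00111) and Cdhr5 (-0.59 ± 0.0997, adjusted p = 0.000856).

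Markers of several cell types moved with the genotypes. In the double knockout, where 9.41% of all genes were called higher and 7.90% lower, 5 of 10 enterocyte markers were higher and 0 lower, and their summed level was 11681.9 to 16057.2 CPM against 8753.9 to 9382.0 CPM in WT. Among stem cell markers 5 of 6 were lower, with sums of 1972.0 to 2104.6 CPM against 2712.2 to 3051.6 CPM, and 3 of 6 proliferation genes were lower. All 6 Paneth cell markers were higher, at 2544.4 to 5200.5 CPM against 1287.6 to 1706.3 CPM, and they were also higher in Cdk8-/- (6 of 6, 3956.3 to 5259.6 CPM, against 2.79% of genes), where 1 hydrolase was called. Of 7 goblet cell markers 2 were higher in the double knockout and 0 lower, 2 of 5 tuft cell markers were lower, and 0 of 6 enteroendocrine markers were called. Without double knockout replicate 3 and Cdk19-/- replicate 1 (10.3% of genes higher and 8.69% lower), 7 enterocyte, 4 Paneth and 4 goblet markers were higher and 5 stem, 3 proliferation and 4 tuft markers lower, and the enterocyte and Paneth sums kept their ranges. In Cdk19-/- the enterocyte sum was below every WT library at 5171.6 to 8445.6 CPM, and the stem cell sum above every WT library at 3547.8 to 5494.5 CPM. No gene was called there (0% of all genes), markers included, but 5 of 10 enterocyte markers had every Cdk19-/- library below every WT library (10.8% of genes) and 5 of 6 stem cell markers every one above (9.13%). Without Cdk19-/- replicate 1 and double knockout replicate 3 the sums were 5171.6 to 5691.0 CPM and 4800.1 to 5494.5 CPM, and 5 enterocyte and 3 goblet markers were called lower and 3 stem cell markers higher, against 4.21% of genes in either direction. In that fit 1 of 6 enteroendocrine markers was also called higher and 1 of 2 colon markers tested lower. With Senexin B at 24 h, where 27.5% of all genes were called (14.8% higher and 12.7% lower), 3 of 10 enterocyte markers were higher and 2 lower (sums 4302.2 to 4847.1 CPM against 4078.7 to 4883.6 CPM with DMSO), and 5 of 6 Paneth markers were lower (1304.2 to 1774.4 CPM against 2865.7 to 3069.4 CPM). Of the others, 1 stem marker was lower, 4 goblet markers were higher and 1 lower, 3 tuft and 2 proliferation markers were higher, and 3 enteroendocrine markers were higher and 1 lower. At 16 h the Paneth sum was 1541.9 to 2002.8 CPM with Senexin B against 2023.7 to 2909.3 CPM with DMSO. The enterocyte sums (4282.2 to 4650.2 against 4618.3 to 5539.0 CPM) and stem cell sums (2046.5 to 2327.6 against 1803.7 to 2521.5 CPM) overlapped there. The 3 colon markers summed to at most 16.7 CPM, and fibroblast and immune markers to at most 3.05 and 2.37 CPM in any library. The part of cell composition in the hydrolase changes was not tested.

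**Figure D5:**
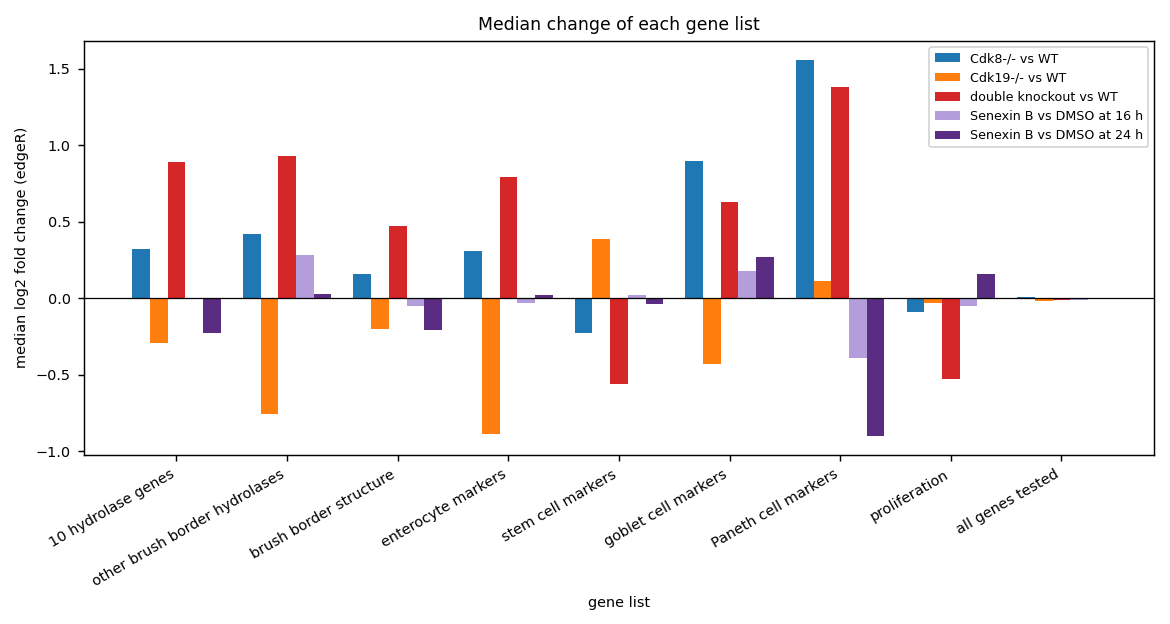
Median log2 fold change of each gene list in 5 comparisons, with all genes tested at the right for scale; bars start at 0. In the double knockout the 10 hydrolases (0.89), the other hydrolases (0.93) and the enterocyte markers (0.79) have similar medians, while with Senexin B at 24 h they lie between -0.23 and 0.03.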

How the data were processed

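RNA was sequenced from mouse small intestinal organoids as single-end reads of 50 bases after oligo(dT) selection, per the methods, although a label of the Senexin B samples names rRNA-depleted RNA. The authors aligned reads with STAR (2.6.0c in the labels, 2.6.0a in the methods) to GRCm38.p6 with Ensembl 93 and deposited raw gene counts, which hold no spike-in rows. The second-strand column was used, and 63.1% to 65.2% of genotype and 21.5% to 25.1% of Senexin B reads were not counted in it. The samples were grouped by GEO labels. Each experiment was fitted separately over 12 libraries with edgeR 4.0.16 in R 4.3.3 (TMM, filterByExpr, quasi-likelihood test, group as the only term), and p-values were adjusted by Benjamini-Hochberg over 15602 or 15467 genes. A gene was called at an adjusted p under 0.05. CPM are TMM-normalised, and fold changes are the fitted ones. The fit was tested on simulated data.

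The members and lists were chosen with earlier results of these data known, as was the doubt about 2 libraries. All 10 members are named in every comparison; of the other lists, at most the 4 called genes with the largest change and a mean of at least 10 counts per library. Within groups no pair of libraries agreed within sampling noise (chi-square per degree of freedom 2.31 or more over 24 pairs). Nothing says whether replicates were separate cultures beyond the study's wording, so p-values may measure technical spread. Same-numbered Senexin B and DMSO libraries deviated together in part (correlations 0.30, 0.10 and 0.11 at 16 h and 0.38, 0.14 and 0.19 at 24 h). Differently numbered ones reached 0.15 at both times, so the pairing is uncertain. Blocked values are given where they change a call. Alternatives were DESeq2 1.42.0 (its size factors in edgeR, or its Wald test), no filter on low counts, the unstranded column, the replicate block, only the 2 groups compared, and each library left out. A list of transcription factor genes and a promoter motif are not reported here.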

Additional observations from a re-analysis of the deposited data

How the results depend on the processing

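With DESeq2 size factors the counts of members called stayed as reported in all 10 comparisons, and with the unstranded column in all but the double knockout against WT (6). For the double knockout against WT the count was 5 to 9 over all alternatives (8.47% to 20.8% of all genes called), and against Cdk19-/- 8 to 10 (13.8% to 28.5%). Without a filter on low counts more members were called: 3 for Cdk8-/- and 3 for Cdk19-/- against WT, 5 for the double knockout against Cdk8-/-, 7 for the combined effect, 7 and 8 for Senexin B at 16 h and 24 h, 1 for the Senexin B effect at 24 h against 16 h and 1 for DMSO at 24 h against 16 h. Over all genes it called 1269, 479, 358 and 566 genes in the first 4 of these comparisons, against 804, 0, 4 and 4 with the filter. In the last 4 it called 4.97%, 15.0%, 0.426% and 6.55% of genes, against 7.75%, 27.5%, 0% and 11.1%. DESeq2's Wald test called 1 member for Cdk19-/- against WT, 4 for the double knockout against Cdk8-/- and 4 for the combined effect. Without Cdk19-/- replicate 1 and double knockout replicate 3 together, 3 were called for Cdk19-/- against WT and 5 for the combined effect (4.21% and 4.60% of genes). The cause of these differences was not tested.

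With the replicate block 1 member was called for the combined effect (0.0513% of genes) and 3 for DMSO at 24 h against 16 h (21.2%), 9 rather than 10 for the double knockout against Cdk19-/- (Sis, adjusted p = 0.0526; 25.1%), and the block within time points gave 1 for the Senexin B effect at 24 h against 16 h (2.10%); apart from these and the Senexin B calls in the report, the block changed no call. In the genotype experiment same-numbered libraries correlated at -0.19 to 0.22, so the number is not a pairing there, nor between the DMSO time points (-0.05 to 0.37).

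Leaving out 1 library, 0 to 1 members were called for Cdk8-/- against WT (0 without any WT library, Cdk8-/- replicate 1 or Cdk8-/- replicate 3; 1.23% to 4.39% of genes), 0 to 3 for Cdk19-/- against WT (3 without Cdk19-/- replicate 1; 0% to 3.27%) and 0 to 3 for the double knockout against Cdk8-/- (3 without Cdk8-/- replicate 3; 0.0188% to 5.28%). For the combined effect the count was 0 to 4 (4 without Cdk8-/- replicate 3 or Cdk19-/- replicate 1, 3 without double knockout replicate 2, 1 without double knockout replicate 3; 0% to 2.93%). It was 3 to 6 for Senexin B at 16 h (3 without Senexin B replicate 1; 4.18% to 11.6%), 5 to 7 at 24 h (16.9% to 24.2%) and 0 to 2 for DMSO at 24 h against 16 h (2 without DMSO 16 h replicate 1, 1 without DMSO 16 h replicate 2; 2.75% to 14.6%).

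Signs changed only for estimates that were not called. Treh for Cdk8-/- against WT was -0.01 with no filter, -0.00 with the unstranded column and -0.01 with only the 2 groups, and -0.18 to 0.12 leaving out 1 library. Leaving out 1 library, Mep1a for Cdk8-/- against WT ran from -0.43 to 0.39, Alpi and Mgam for Senexin B at 16 h from -0.22 to 0.06 and from -0.01 to 0.29, and Anpep for the Senexin B effect at 24 h against 16 h from -0.16 to 0.24. For DMSO at 24 h against 16 h the ranges were -0.16 to 0.22 for Treh, -0.27 to 0.03 for Alpi, -0.02 to 0.15 for Dpp4 and -0.09 to 0.34 for Enpep. Treh for DMSO at 24 h against 16 h was 0.00 with the replicate block. Lct rests on 26 to 33 reads per library with DMSO at 16 h, which limits its fold change there.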
